A study of Mus musculus with 10 samples.

Results

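The cells described here were the mouse pituitary cells that held RNA of major histocompatibility complex (MHC) class II genes but none of the complement genes that mark resident macrophages. They were chosen by measured values: a kept barcode was a member when it held unique molecular identifiers (UMIs, counted RNA molecules) of at least 3 of the 4 genes Cd74, H2-Aa, H2-Ab1 and H2-Eb1 and no UMI of C1qa, C1qb or C1qc. The rule found 65 members among 22325 kept cells of 10 libraries, and 842 kept cells with UMIs of at least 2 of the 3 C1q genes (C1q-positive cells) served as the neighbouring population. The proposed name for the members was C1q-negative antigen-presenting cells, with the question whether they were dendritic cells or B cells. The data went against that name for 26 of them, which carried genes of the pituitary stem and supporting cells with almost no leukocyte gene. Of the others 10 carried B cell genes, 1 dendritic cell genes and 7 phagocyte genes, and 21 carried none of these marks. They are therefore called class II, C1q-zero cells, or members.

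All mice were of the CD1 strain, and whole pituitaries were dissociated without enzymes, with no cell sorting described. The 8-week wild-type (WT) mice gave 3 female and 3 male libraries, of which female 1 and male 1 were made by 10X Genomics and replicates 2 and 3 by Drop-seq, a droplet method with barcoded beads. The other 4 libraries were Drop-seq and female: 1 from 8-week mt/hGRF transgenic mice, which carry human growth hormone-releasing factor under a metallothionein promoter and so overexpose the pituitary to that factor, 1 from a 13-week WT virgin, and 2 from 13-week WT mice in lactation. Several libraries pooled mice, whose cells cannot be told apart, and each library was counted as 1 sample.

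MHC class II molecules are pairs of an alpha and a beta chain that show peptides from taken-up material to CD4 T cells. H2-Aa and H2-Ab1 encode the chains of the mouse I-A molecule, H2-Eb1 the beta chain of I-E, and Cd74 the invariant chain that guards the groove until a peptide is loaded. Dendritic cells, B cells and macrophages carry class II constitutively, and other cells, epithelial cells among them, can be induced to make it by interferon-gamma through the transactivator Ciita. In the anterior pituitary, supporting (folliculostellate) cells and Sox2-expressing stem cells lie between the hormone cells, and macrophages are resident there.

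The genes H2-Ab1, H2-Aa and H2-Eb1 lie close together in the class II region of chromosome 17. On GRCm38 (GENCODE vM21), H2-Ab1 spans chr17:34257689-34269419 on the forward strand, H2-Aa chr17:34282744-34287823 on the reverse strand and H2-Eb1 chr17:34305867-34316674 on the forward strand. The upstream sequences of H2-Aa and H2-Eb1 are shown because the rule reads these genes as a set, and because H2-Eb1 did not follow the others in every library. They are the 250 bases that precede the RefSeq transcription start on GRCm38.p6, in the direction of transcription, and capitals mark ATTGG on either strand, letters found in the Y box of class II promoters. Capitals also mark GCAAC, letters found in their X box. H2-Aa is from chr17:34287824-34288073 on the reverse strand and H2-Eb1 from chr17:34305617-34305866 on the forward strand.
H2-Aa: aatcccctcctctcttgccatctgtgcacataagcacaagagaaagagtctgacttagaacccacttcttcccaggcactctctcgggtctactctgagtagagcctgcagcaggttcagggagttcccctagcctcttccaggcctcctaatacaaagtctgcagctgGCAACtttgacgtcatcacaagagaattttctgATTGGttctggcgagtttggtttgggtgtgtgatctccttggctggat
H2-Eb1: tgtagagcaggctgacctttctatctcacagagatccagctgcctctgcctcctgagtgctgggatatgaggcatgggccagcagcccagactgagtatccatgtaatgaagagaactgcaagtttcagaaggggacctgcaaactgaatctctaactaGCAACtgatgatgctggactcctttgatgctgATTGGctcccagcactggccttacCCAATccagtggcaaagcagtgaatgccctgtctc

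In both, GCAAC preceded ATTGG on the same strand. The first base of GCAAC stood 81 bases before the start in H2-Aa and 91 in H2-Eb1, and that of ATTGG 48 and 59 bases before it. H2-Eb1 held a further match of the first motif on the opposite strand, printed there as CCAAT, 35 bases before the start. Neither motif is rare: of 27025 mouse genes with an upstream sequence of 250 bases in that table, 34.5% held ATTGG on either strand, 30.1% held GCAAC on either strand and 10.8% held both. The matches describe letters only.

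Members were few in every library and unevenly spread. The transgenic library held 31 of 2768 kept cells (1.12%, exact binomial 95% interval 0.762 to 1.59%) and the virgin library 18 of 3627 (0.496%, 0.294 to 0.783%). Lactation 1 held 4 of 2639 (0.152%) and lactation 2 held 3 of 5253 (0.0571%). Among the 8-week WT females there were 1 of 1621 (female 1), 0 of 807 (female 2, which allows a share of up to 0.372%) and 3 of 1226 (female 3), and among the males 3 of 1610, 1 of 832 and 1 of 1942. Thus 49 of the 65 came from the transgenic and virgin libraries, and 16 remained without these libraries. Intervals and limits cover counting error only.

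**Figure D1:**
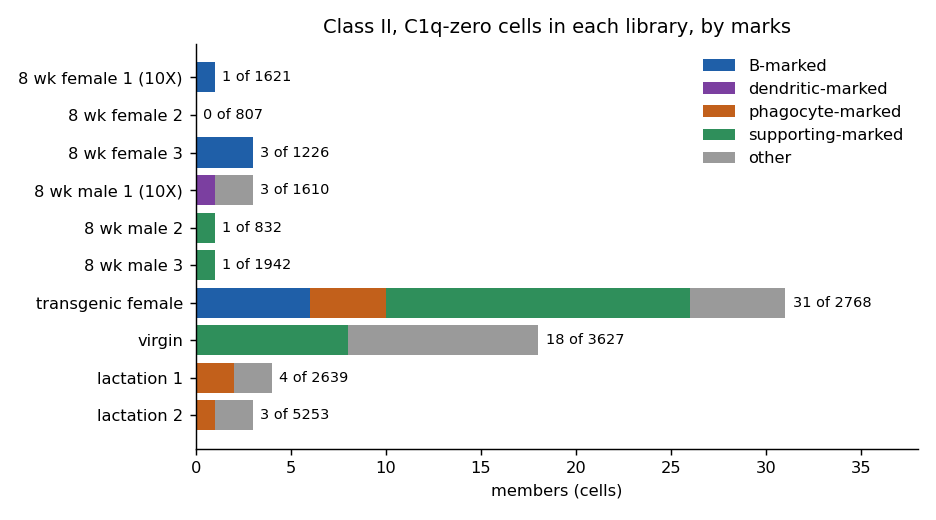
Number of members (cells, horizontal axis) in each of the 10 libraries, coloured by the marker genes each cell carried; the text at each bar gives members of kept cells. The transgenic library (31) and the virgin library (18) hold most members. B-marked members sit in the transgenic library, female 1 and female 3. Supporting-marked members (green) are almost all in the transgenic and virgin libraries, and grey members (other) had no mark.

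The share did not separate the sexes at 8 weeks. It averaged 0.102% ± 0.127 (SD, n = 3 libraries) in females and 0.119% ± 0.0674 (SD, n = 3) in males, a difference of -0.0172 percentage points (exact permutation test, two-sided, p = 0.9; 3 against 3 cannot go below 0.1). The libraries overlapped, and the difference was 0.00301 without female 1, 0.0163 without male 1 and 0.0339 without female 2. All 4 female members were B-marked and 0 of the 5 male members. Males did hold B-marked kept cells, 1 in male 1 and 1 in male 2, which had fewer than 3 class II genes. Female 1 held 1 B-marked kept cell and female 3 held 4, of which 3 were members. Their share among members was not tested, since no 8-week WT library held the minimum of 5 members. As a share of kept cells, a test added after seeing the data, B-marked members averaged 0.102% ± 0.127 (SD, n = 3) in females and 0% in males (exact permutation test, two-sided, p = 0.4). For lactation and the transgene there was no test, with 1 virgin, 2 lactation and 1 transgenic library. Per 100 C1q-positive cells there were 24.6 members in the transgenic library, 8.33 in the virgin, 3.36 and 2.5 in the lactation libraries, and 0 to 9.09 in the 8-week WT libraries.

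Fewer cells passed the rule at lower depth, but members were not deep throughout. Kept cells had a median of 533 to 1236 UMIs by library, from 798791 to 4960260 UMIs in all. The 65 members had a median of 1362 (370 to 9703). That median was 2231 in supporting-marked, 756.5 in B-marked and 806 in unmarked members. In female 3 members were shallower than kept cells, with medians of 510 and 825. No member's barcode was kept in another library of its platform, and no pair of Drop-seq members of a library had barcodes differing at 1 base or none. No doublet caller was run. With every kept cell thinned to 300 UMIs ahead of the rule, 31 cells passed it.

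The rule had neighbours on both sides. With no C1q UMI, 42 cells held exactly 3 of the class II genes, 23 held all 4, and 65 held exactly 2, just outside. Another 17 cells held at least 3 class II genes and exactly 1 C1q UMI, and 452 held at least 3 with 2 or more C1q UMIs. Of the 65 just outside, 33 were supporting-marked, 28 had no mark, 3 were phagocyte-marked and 1 was B-marked. Of the 17 with 1 C1q UMI, 6 were phagocyte-marked and 10 had no mark.

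The genes of the rule are a description of the choice. H2-Ab1 was seen in 64 of the 65 members (345 UMIs), Cd74 in 62 (426 UMIs), H2-Aa in 62 (413 UMIs) and H2-Eb1 in 30 (150 UMIs). H2-Eb1 was nearly missing from whole libraries. In the C1q-positive cells, which the rule left out, H2-Eb1 reached 39 UMIs per 10000 UMIs in the transgenic library, 20.4 in female 2, 19.3 in lactation 1 and 10.3 in male 3. It was 2.29 in male 2, 1.87 in the virgin, 1.5 in female 3, 0.713 in female 1, 0.649 in male 1 and 0.439 in lactation 2. H2-Ab1 in the same cells lay between 22.1 (female 2) and 134 (virgin) in all 10 libraries. H2-Eb1 was therefore 80.5% of H2-Ab1 in the transgenic library and 92.1% in female 2, but 1.4% in the virgin and 0.904% in male 1. The lactation libraries differed in the same way, with 50.9% in lactation 1 and 1.27% in lactation 2.

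**Figure D2:**
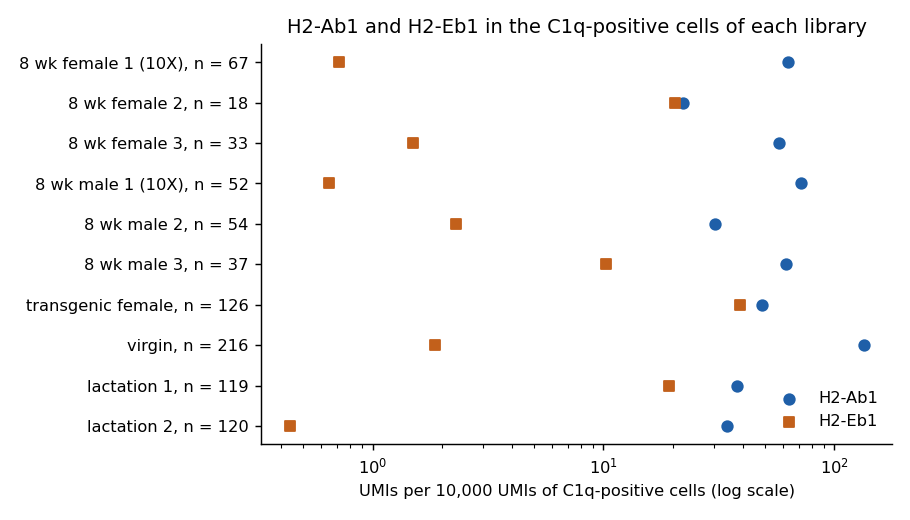
UMIs of H2-Ab1 (circles) and H2-Eb1 (squares) per 10000 UMIs of the C1q-positive cells of each library, on a logarithmic axis; n is the number of cells. H2-Ab1 lies between 22.1 and 134 in every library, while H2-Eb1 runs from 0.439 in lactation 2 to 39 in the transgenic library.

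This split changed what the rule asked for. In the transgenic library 25 of 31 members held H2-Eb1 and 19 held all 4 genes, whereas in the virgin library none of 18 held H2-Eb1, so that each held the other 3. When H2-Eb1 was dropped and Cd74, H2-Aa and H2-Ab1 were all required, 58 cells passed, 25 of them in the transgenic library and 18 in the virgin. The transgenic and virgin libraries thus held the most members under either rule.

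In all kept cells with no C1q UMI and none of the marks used here, unmarked members included, Cd74 was at 0.0425 to 0.516 UMIs per 10000 UMIs and seen in 0.409 to 2.6% of cells, the highest in the virgin library. With the unmarked members left out, which removes cells by their class II UMIs, it was at 0.0425 to 0.357. T and NK cells of mice make no class II, and 1 of the 31 kept cells marked as such (3.23%) held a class II UMI. Of 15 B-marked kept cells 14 held one (93.3%), of 816 phagocyte-marked cells 596 (73%), and of 369 supporting-marked cells 114 (30.9%).

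Marks were given by 12-gene lists for B, dendritic, phagocyte, and T and NK cells: a cell took the mark of the list with most distinct genes seen, and at least 2. All 12 B genes were seen among the members, with 202 UMIs, of which 198 were in the 10 B-marked cells. Of the dendritic list 4 of 12 genes were seen with 11 UMIs, and of the T and NK list 1 gene with 1 UMI. Of the phagocyte list 11 of 12 were seen, with 147 UMIs. The B mark was given by these same genes, so the gathering of B UMIs in B-marked cells follows in part from the marking. Dendritic genes were hardly seen in the members.

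The B-marked members were 6 cells of the transgenic library, 3 of female 3 and 1 of female 1 (15.4% of members, interval 7.63 to 26.5%). Each carried 3 to 8 B genes, with a median of 6.5, and all 10 kept the mark when 3 genes were required, when the immunoglobulin genes were left out, or when members were thinned to 300 UMIs. Igkc, the kappa light chain, was seen in 9 of the 10 (59 UMIs). Ms4a1, which encodes CD20, was seen in 8 (27 UMIs), and so was Cd79b, a signalling chain of the B cell receptor (20 UMIs). Ighm, the heavy chain of IgM, was seen in 6 (27 UMIs), Ighd, that of IgD, in 6 (12 UMIs), and Ly6d in 6 (14 UMIs). Ms4a1, Cd79b, Igkc, Ighd and Ly6d were seen in no other member, whereas Ighm was also seen in 18.8% of C1q-positive cells and so marks B cells less sharply here.

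These genes were also seen in a few unmarked cells without C1q, which by definition held fewer than 2 B genes. In the transgenic library Igkc was seen in 0.315% of such cells, at 2.96 UMIs per 10000 UMIs, and Ms4a1 in 0.0788%. Cd79b was seen in 0.552%, at 0.0724 UMIs per 10000 UMIs. The Igkc UMIs thus lay in few cells with much of it, none of them a member, and plasma cell genes were not counted in these. In female 3 Igkc and Ms4a1 were at 0 in such cells and Cd79b was seen in 0.259%. Pax5, the factor that holds B cell identity, was seen in 5 of the 10. Plasma cell genes were thin among the members: Mzb1 was seen in 4 B-marked cells (7 UMIs), and Jchain, Prdm1 and Tnfrsf17 were at 0. Of the lymphoid homing genes, Cxcr4 and S1pr1 were seen in 2 B-marked cells each and Ccr6 in 1. Cxcr4 was also seen in 3 supporting-marked members, S1pr1 in 1, and Ccr6 in 6.77% of C1q-positive cells. Cd37 and Cd52, from the list of genes shared by leukocytes, were seen in 8 and 7 of the 10. They were also seen in 19.1% and 47% of C1q-positive cells, so they do not mark B cells sharply.

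Beside supporting-marked members, B-marked members were shallow by median, and the rule required their class II genes. Their totals ran from 370 to 2143 UMIs (median 756.5), and class II genes made 95.3 to 406 UMIs per 10000 UMIs (median 225.5). By library the pooled class II level was 193 in the transgenic library, 236 in female 3 and 406 in the single cell of female 1. Hormone RNA, which free RNA can bring into any droplet, was 0.388 to 8.69% of their UMIs. All 10 lacked every gene of the supporting list. Of 15 B-marked cells among all kept cells, 10 were members, and the others failed for fewer than 3 class II genes.

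Only 1 member was dendritic-marked, a male 1 cell of 2040 UMIs with 407 class II UMIs per 10000 UMIs. It held Xcr1, a receptor of cross-presenting dendritic cells, and Naaa, and its hormone RNA was 2.84%. Flt3, Zbtb46, Itgax, Clec9a, Ccr7, Mgl2, Clec10a and Il4i1 were at 0 in all 65 members, and 0 of 65 allows a share of cells with such a UMI of up to 4.62%, which is no limit on cells that express the gene. Clec10a was listed in 7 of the 10 libraries' tables, Clec9a in 8, and Flt3 and Ccr7 in 9. Naaa was seen in 5 members, of which 2 were phagocyte-marked and 2 supporting-marked. Cd209a was seen in 1 member, which was phagocyte-marked, and Fscn1 in 2, both supporting-marked. The dendritic and phagocyte marks thus shared some genes among members. Among all kept cells 10 were dendritic-marked, and 8 of these held no class II UMI. At these depths a missing mark does not show that the transcripts were absent. With 1 gene in place of 2, the dendritic-marked members numbered 5, and with 3 genes there were 0.

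The 7 phagocyte-marked members came from the transgenic library (4), lactation 1 (2) and lactation 2 (1). They held the most leukocyte RNA, with a median of 6 of 10 genes shared by leukocytes, such as Ptprc and Coro1a (1 to 8), and class II at 72.5 to 801 UMIs per 10000 UMIs (median 396). Lyz2, the lysozyme of myeloid cells, was seen in 6 (77 UMIs), against 71.6% of C1q-positive cells. Cx3cr1, the fractalkine receptor, was seen in 5 (8 UMIs), against 62.7%. Fcgr1 was seen in 3, against 34.3% of C1q-positive cells, Cd68 in 2, against 46.9%, and Fcgr3 in 1, against 56.4%. Ccr2, the receptor that draws monocytes to tissue, was seen in 4 of the 7 (31 UMIs), against 3.56% of C1q-positive cells. Csf1r, the receptor of the macrophage growth factor, was seen in 1 of them, against 55.2% of C1q-positive cells. Of 816 phagocyte-marked kept cells 30 had no C1q UMI, and these 7 were among them.

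The largest set was the 26 supporting-marked members (40%, interval 28 to 52.9%). This class was added after values had been seen, and took members with no lineage mark that held at least 2 of Sox2, S100b, Cyp2f2, Aldh1a2, Lcn2 and Mia. There were 16 in the transgenic library, 8 in the virgin, and 1 each in male 2 and male 3. Mia, a secreted protein abundant in these cells, was seen in all 26 (458 UMIs), against 1.47 to 8.31% of unmarked cells without C1q. Since Mia is one of the genes that give the mark, this difference follows in part from how both sets were chosen. Aldh1a2, which makes retinoic acid, was seen in 17 (25 UMIs). Sox2, the stem cell factor, was seen in 14 (35 UMIs), Cyp2f2 in 13 (40 UMIs) and Lcn2 in 11 (40 UMIs). S100b, the classical folliculostellate marker, was at 0 in all 65 members and was also nearly missing from supporting-marked cells as a whole, at 0 to 0.41 UMIs per 10000 UMIs by library.

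Leukocyte genes were nearly missing from these cells. Of the 10 leukocyte genes 1 UMI in all was found, of Coro1a in 1 cell, so 25 of the 26 had none. Ctss, Tyrobp, Fcer1g, Laptm5, Lyz2, Csf1r and Cx3cr1 were at 0 in all 26, although Ctss was seen in 95.4% and Tyrobp in 86.1% of C1q-positive cells. The rule itself set C1q to 0, and the class left out cells with 2 or more phagocyte genes, among them Lyz2, Csf1r and Cx3cr1. That exclusion removed few cells, since of all 372 kept cells with at least 2 supporting genes 3 carried a lineage mark, 2 of them the phagocyte mark. The 26 were the deepest members, with 517 to 9703 UMIs (median 2231) and up to 3953 genes, just under the limit of 4000. Hormone RNA was 1.25 to 26.4% of their UMIs (median 4.07).

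**Figure D3:**
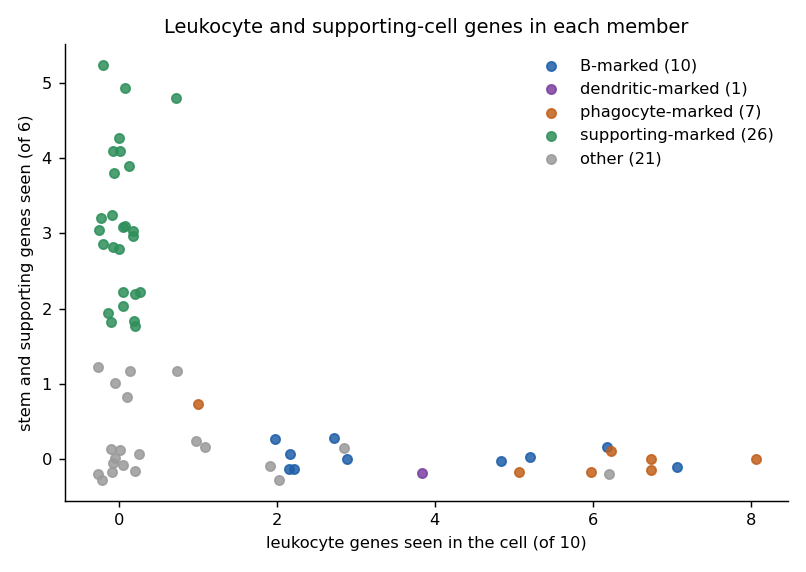
Each point is a member, placed by how many of 10 leukocyte genes (horizontal) and of 6 stem and supporting genes (vertical) were seen in it, with small random shifts so that points do not hide each other. Supporting-marked members (2 to 5 supporting genes) sit at 0 or 1 leukocyte genes, and B-marked and phagocyte-marked members lie along the bottom.

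Their class II level was the lowest of the marked sets. It ran from 7.73 to 213 UMIs per 10000 UMIs (median 29.6), on 3 to 24 UMIs a cell. By library it was 36.8 in the transgenic, 23.8 in the virgin, 20.6 in male 2 and 13 in male 3. The UMIs of Cd74, H2-Aa, H2-Ab1 and H2-Eb1 were 55, 58, 45 and 19 in the 16 transgenic cells, near equal for the first 3. They were 31, 12, 23 and 0 in the 8 virgin cells, with H2-Eb1 missing as in the C1q-positive cells of that library. The lowest B-marked and phagocyte-marked members, at 95.3 and 72.5, lay above the supporting-marked median and within the supporting-marked range. The rule asked for UMIs of at least 3 class II genes, so the lowest possible level was higher in shallower cells. Median depth was 756.5 UMIs in B-marked, 1687 in phagocyte-marked and 2231 in supporting-marked members. The order of the sets is therefore set in part by the rule and by depth.

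**Figure D4:**
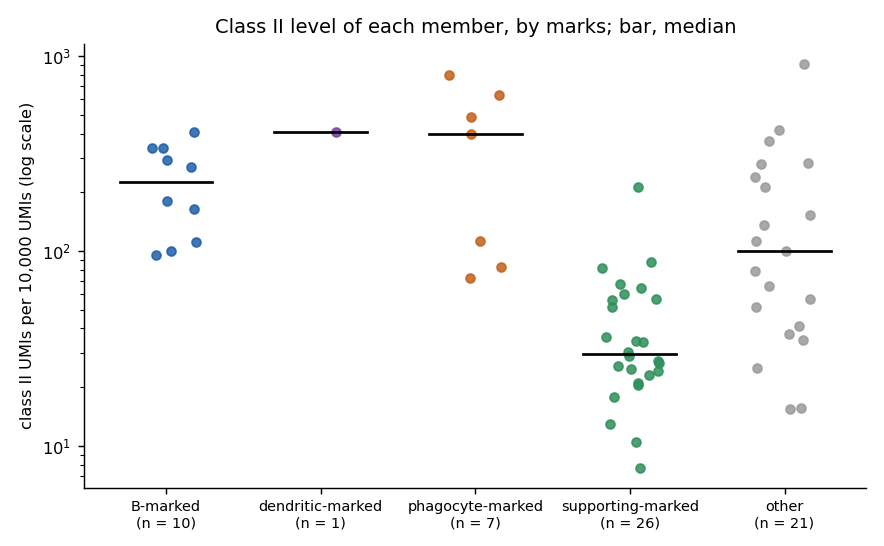
UMIs of the 4 class II genes per 10000 UMIs in each member (vertical, logarithmic axis), by mark; the black bar is the median. Medians are 225.5 for B-marked, 396 for phagocyte-marked, 29.6 for supporting-marked and 100 for unmarked members. The lowest level the rule allows is higher in shallower cells, so the sets are not compared at equal depth.

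Antigen processing genes were partly shared between the sets, which differed in depth and were not tested against each other. Of 12 such genes 11 were seen among the members, Cd80 being at 0. Lgmn, a lysosomal protease, was seen in 13 of the 26 supporting-marked members (23 UMIs) and in 4 of the 7 phagocyte-marked (7 UMIs). H2-DMa and H2-DMb1, the chains of the peptide editor H2-DM, were each seen in 6 supporting-marked members. H2-DMa was also seen in 2 B-marked and 2 phagocyte-marked members, and H2-DMb1 in 1 phagocyte-marked member. Ctss, the cathepsin that trims the invariant chain, was in no supporting-marked member. It was in 6 of the 7 phagocyte-marked members (38 UMIs) and 2 of the 10 B-marked. H2-Oa and H2-Ob, which temper H2-DM in B cells, were each seen in 2 B-marked cells and in no supporting-marked cell. H2-Oa was also seen in the dendritic-marked and in 1 unmarked member. Ciita gave 2 UMIs in all members, 1 in a phagocyte-marked and 1 in an unmarked cell. It was seen in only 1.9% of C1q-positive cells (17 UMIs), so a count of 0 in a set is not to be read.

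Since the rule picks cells by class II, all 369 supporting-marked kept cells were examined, members or not. In the transgenic library 16 of 41 were members (39%, interval 24.2 to 55.5%) and in the virgin library 8 of 79 (10.1%, 4.47 to 19%). In the other 8 libraries 2 of 249 were (0.803%, 0.0974 to 2.87%). Their summed class II level was 24.7 UMIs per 10000 UMIs in the transgenic library and 9.64 in the virgin. It was 3.03 in male 3, 1.57 in female 2, 1.44 in male 2, 0.939 in female 1, 0.819 in lactation 1, 0.734 in male 1, 0.632 in female 3 and 0.494 in lactation 2. The order of the last 7 rests on few UMIs and is not to be read. With 1 transgenic and 1 virgin library, neither value has a replicate.

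The same libraries were highest at equal depth. Supporting-marked cells had a median of 1429 UMIs in the transgenic and 1182 in the virgin library, below the 4968 and 3521 of the 10X libraries. With each cell thinned to 300 UMIs, 51.2% of them held a class II UMI in the transgenic library and 17.7% in the virgin, against 0 to 8.33% in the other 8. Unthinned, the shares were 75.6%, 44.3% and 8.33 to 37.5%. Fewer cells passed the rule when all were thinned to 300 UMIs ahead of it. By the marks of the cells before thinning, 3 supporting-marked, 6 B-marked, 14 phagocyte-marked and 8 unmarked cells passed, and 21 of these 31 were members. Thinning also removes mark genes, and by the marks left after it no supporting-marked cell passed, while 6 B-marked and 9 phagocyte-marked cells did.

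C1q and leukocyte genes were counted in the supporting-marked cells, a class that leaves out phagocyte-marked cells. None of the 41 transgenic supporting-marked cells held a C1q UMI and 2 held a leukocyte gene, and in the virgin library 5 of 79 held C1q and 3 a leukocyte gene. In the other 8 libraries 8 of 249 held C1q. With members left in on both sides, Cd74 was at 0.338 UMIs per 10000 UMIs in unmarked cells without C1q of the transgenic library and 0.516 in the virgin, against 7.41 and 5.04 in the supporting-marked cells. With members left out on both sides it was at 0.126 and 0.357, against 1.97 and 3.74.

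The same 2 libraries also held more MHC class I RNA in supporting-marked cells, in genes picked after values had been seen and so given without a test. B2m, the light chain of class I, was at 33.4 UMIs per 10000 UMIs in the transgenic library and 23.6 in the virgin, and at 0.394 to 8.56 in the other 8. H2-K1, a class I heavy chain, was at 25.5 and 26.9, and at 0.421 to 11.5 elsewhere. H2-D1, another heavy chain, was at 17.2 and 33.9, and at 2.75 to 18.4 elsewhere, so that male 2 (18.4) and male 3 (17.5) exceeded the transgenic value. In unmarked cells without C1q, members included, B2m was at 2.27 in the transgenic, 2.83 in the virgin and 0.426 to 1.45 elsewhere. H2-K1 was there at 1.22 and 2.2, and at 0.619 to 1.54 elsewhere. H2-D1 was at 1.34, the lowest of the 10 libraries, and 4.16, and at 1.5 to 4.06 elsewhere, so that the transgenic library did not stand above the others for either heavy chain in these cells.

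**Figure D5:**
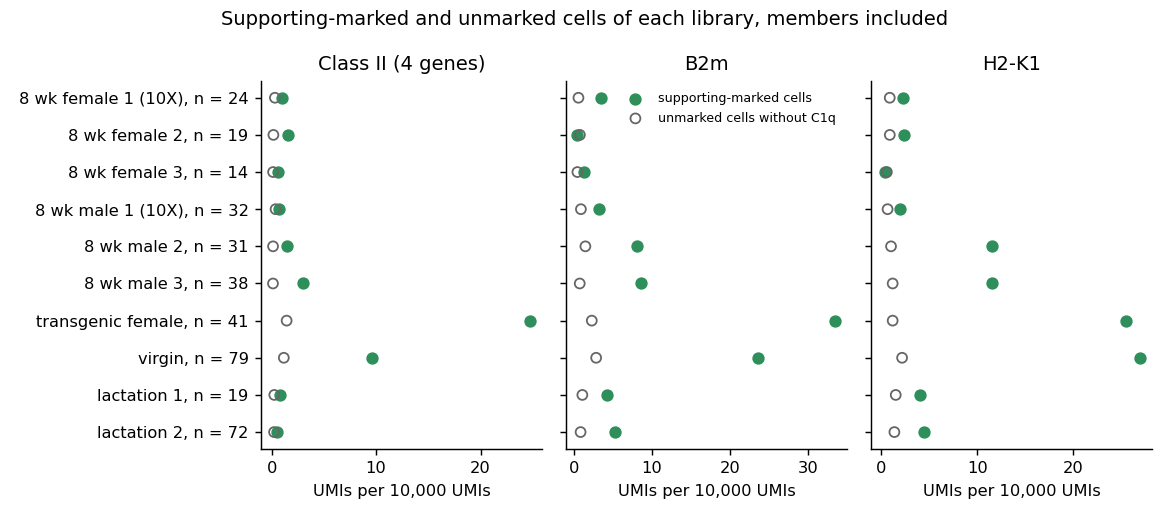
UMIs of the 4 class II genes together, of B2m and of H2-K1 per 10000 UMIs in the supporting-marked cells (green) and in unmarked cells without C1q (open) of each library, members included in both; n is the number of supporting-marked cells. The green points of the transgenic and virgin libraries lie to the right in all 3 panels (class II 24.7 and 9.64), and the open circles for class II lie at 1.43 and 1.16 in these libraries and at 0.122 to 0.371 in the others.

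Within these libraries members also held more class I RNA than the supporting-marked cells outside the rule. In the transgenic library the 16 members had B2m at 46.7 and H2-K1 at 35.5 UMIs per 10000 UMIs, and the 25 supporting-marked cells outside the rule 15.2 and 11.8. In the virgin library the 8 members had 53.4 and 54.1, and the 71 others 17.2 and 21.1. Members were also deeper there, with medians of 1981 against 1025 UMIs and 2566 against 1011. Mia was likewise higher inside (55.4 against 24.2, and 56.3 against 31.7), whereas Sox2 was 2.91 against 4.23 in the transgenic and 7.22 against 6.49 in the virgin library. The cells outside the rule in these libraries still held more B2m than the supporting-marked cells of the other 8. For H2-K1 the transgenic cells outside the rule, at 11.8, lay close to those of male 2 (10.9) and male 3 (11.4), and the virgin cells were at 21.1. H2-D1 was at 9.86 outside the rule in the transgenic library, below male 2 (18.3) and male 3 (17.3), and at 27.2 in the virgin.

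The 21 members with no mark were mixed. The virgin library held 10, the transgenic 5, and lactation 1, lactation 2 and male 1 held 2 each. The unmarked members had a median of 806 UMIs, below the 2231 of supporting-marked members, and 14 of the 21 had no leukocyte gene. Hormone RNA made a median of 10.6% of their UMIs and up to 50.1%, and 1 virgin cell held 248 UMIs of haemoglobin genes. Their class II level spread from 15.4 to 909 UMIs per 10000 UMIs (median 100). The cell at 909, in the transgenic library, held 163 class II UMIs among 1794 and 6 leukocyte genes, and a male 1 cell at 418 held 3. The other unmarked members held at most 2.

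Members were compared with C1q-positive cells of the same library, on UMI counts summed for each set and library. Only the transgenic library (31 members, 126 C1q-positive cells) and the virgin library (18 and 216) held 10 cells of each set. This contrast is the one the rule made, so its calls describe what each set holds. Of 1962 genes tested, 525 were called (26.8%; edgeR quasi-likelihood test, Benjamini-Hochberg adjusted p below 0.05), with 221 higher in members (11.3%) and 304 lower (15.5%), and the median log2 fold change of all genes was -0.16. DESeq2 called 74 genes. Without the supporting-marked members, which left 15 members in the transgenic and 10 in the virgin library, 0 of 1199 genes were called by edgeR, with 216 at an unadjusted p below 0.05; DESeq2 was not run on that set.

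The genes highest in members were seen mostly in the supporting-marked cells, which were also the deepest. Of the 12 with the highest fold change, all were at 0 UMIs in the 342 C1q-positive cells of these libraries. Hsd11b1, which regenerates active glucocorticoid, had 85 UMIs in 20 members (at least 93.7-fold higher against a limit of 3 UMIs over the group; edgeR adjusted p = 0.00746). Folr1, a folate receptor, had 70 UMIs in 21 members (at least 77.1-fold), Igfbp2, which binds insulin-like growth factors, 50 in 19 (at least 55.1-fold), and Msx1, a homeobox factor, 49 in 20 (at least 54-fold). Sox2 had 34 UMIs in 13 members (at least 37.5-fold). Cpxm2, Mlc1, 2610203C20Rik, Crip2, Cntn1 and Kcnk2 were also among them, with 23 to 40 UMIs. Of the UMIs of these 12 genes 467 lay in supporting-marked members and 47 in all other members (90.9% in the former, which held 74% of all UMIs of members in these libraries).

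The 12 genes lowest in members were at 0 UMIs in all 49 members of these libraries. Sparc, a matrix protein, had 564 UMIs in the C1q-positive cells (at least 56.9-fold lower in members; edgeR adjusted p = 0.00746), Fcgr3, an Fc receptor, 366 (at least 36.9-fold), and Csf1r 327 (at least 33-fold). Siglech had 271, Ccl12 260, Fcrls 251, P2ry12, a purine receptor of microglia, 249, and Trem2, a lipid receptor of phagocytes, 236. Hpgds, Gpr34, Mrc1 and Abca1 had 101 to 183. Several of these, such as Csf1r, Fcgr3 and Trem2, are macrophage genes. Without supporting-marked members none of the 12 passed the threshold (edgeR adjusted p = 0.111 to 0.187). In the 25 members then left they were still at 0 UMIs, but with fewer member UMIs the bound fell to at least 14.8-fold lower for Sparc and at least 2.65-fold for Abca1.

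By list, beside 15.5% of all genes called lower and 11.3% higher in members, 9 of the 11 phagocyte genes tested were lower and none higher (median log2 fold change -5.34, or -4.26 with the 3 genes at 0 in members set at their bound, against -0.16 for all genes). All 6 antigen processing genes tested were lower (median -3.72). Ctss was lower by -4.75 ± 0.59 (SE; edgeR adjusted p = 0.00746) and H2-DMa by -2.25 ± 0.48 (adjusted p = 0.02). Of 9 leukocyte genes tested 5 were lower and none higher (median -2.39). The 4 stem and supporting genes tested, Mia, Sox2, Cyp2f2 and Aldh1a2, were all higher (median 6.82, or 5.74 with Sox2 at its bound), Mia by 7.38 ± 0.86 (adjusted p = 0.00746). Of the B list only Ighm could be tested, at -1.63 ± 0.48 (adjusted p = 0.0518), and no dendritic gene could. Hormone genes showed no call in 4 tested (median 0.05).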

How the data were processed

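The files deposited by the authors hold UMI counts per gene and barcode, without scaling. According to their methods, Drop-seq reads were aligned to mm10 (the submitters' notes list STAR 2.5.2a), exonic reads were counted and UMIs within an edit distance of 1 were merged. Cell Ranger made the 10X Genomics tables, and its version is not given in the sources used here. No cell types were given with the counts.

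Drop-seq cells were kept with at least 300 UMIs and 100 to 4000 genes, and 10X Genomics cells with 201 to 2999 genes. All needed a mitochondrial share below 0.1 and a ribosomal pseudogene share below 0.01. The members and the gene lists were chosen with earlier results of these data known. Genes named are those of the rule, up to 6 genes of a list by the number of members with a UMI, and the 12 highest and 12 lowest log2 fold changes among genes at adjusted p below 0.05 with the same direction in every library. Other genes, named to answer the question put to the list or to show class I, were chosen after their values were seen.

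Counts were summed per set and library where each set had at least 10 cells, and fitted with edgeR 4.0.16 (R 4.3.3; filterByExpr, TMM, glmQLFit and glmQLFTest, library as a term), with the 7 genes of the rule left out of the test. On simulated counts with 100 genes changed 4-fold and 100 changed 8-fold among 1962, 61% and 82% were recovered, with 2 false calls. The simulated counts followed the fitted trend of the spread, with no difference between libraries. They therefore do not show how many of the calls in the real data are false. DESeq2 1.42.0, other normalizations, filters, thinning, rules and leaving out libraries were tried as alternatives. Shares have exact binomial (Clopper-Pearson) 95% intervals from scipy 1.17.1, and a count of 0 was given a limit of 3 counts. Sexes were compared by an exact permutation test. Levels are pooled UMIs per 10000 UMIs. Libraries, not cells, are the samples. The edgeR comparison rests on the transgenic and the virgin library, which are not replicates of a condition. Its p-values therefore lean on an estimate of spread that is shared over genes. Sums at 0 were set to 3 UMIs over the group for bounds. Gene positions are from GENCODE vM21 and promoters from RefSeq (GRCm38.p6). Some genes that the rule for named genes picks are not reported here.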

Additional observations from a re-analysis of the deposited data

How the results depend on the processing

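With 65 cells and 1 to 3 libraries a group, most values here have no replicate. The number of genes called against C1q-positive cells was 525, and 74 with DESeq2, 80 after thinning to 300 UMIs (261 genes tested), 1020 with at least 2 class II genes and 0 without supporting-marked members, where the 12 lowest genes were still at 0 UMIs in members and at least 2.65 to 14.8-fold lower. With all 4 class II genes, or with either library left out, 1 library remained and no fit could be made. The 24 named genes kept their direction under every alternative in which they were fitted. Each was at 0 UMIs in 1 of the 2 sets, and most alternatives used much the same cells, so a reversal was hardly possible. After thinning 7 of them were fitted. Without supporting-marked members the 12 lowest were fitted and 0 passed the threshold, while none of the highest was fitted. The female minus male difference in share (-0.0172 percentage points) became -0.111 with at least 2 class II genes, 0.00648 with all 4 genes, 0.0747 after thinning, 0.0365 with Drop-seq only, and 0.0866 as members per 100 C1q-positive cells, and ranged from -0.0885 to 0.0339 with single libraries left out, turning to 0.00301 without female 1, 0.0163 without male 1 and 0.0339 without female 2. Pairing by replicate number (replicate block) gave -0.0172 (exact sign-flip test, p = 1), and the alternatives' p ran from 0.3 to 1. The B-marked share of members was not tested, since no 8-week WT library held 5 members. B-marked members per kept cell, added after seeing the data, differed by 0.102 percentage points (exact permutation test, p = 0.4), by 0.0308 to 0.153 with single libraries left out (0.0308 without female 3, 0.153 without female 2) and by 0.102 with the replicate block (exact sign-flip test, p = 0.5). Members numbered 23 with all 4 genes (B-marked 5, dendritic-marked 0, supporting-marked 10), 130 with at least 2 (supporting-marked 59), and 31 after thinning ahead of the rule (B-marked 6, dendritic-marked 0, supporting-marked 0). Thinning members alone left 9 supporting-marked and 0 dendritic-marked. With 1 lineage gene in place of 2, 5 members were dendritic-marked and 15 phagocyte-marked, and with 3 genes 0 were dendritic-marked. Without the transgenic and virgin libraries 16 members remained (B-marked 4, phagocyte-marked 3, supporting-marked 2). Dropping H2-Eb1 from the rule, leaving out supporting-marked members or these libraries, and thinning ahead of the rule were chosen after seeing the data. The cause of these changes was not tested.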

Other observations

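Proliferation genes, read as values only, were seen in a few members. Mki67 was seen in 3 of the 65 (17 UMIs), Top2a in 4 (15 UMIs) and Birc5 in 5 (6 UMIs), none of them B-marked or phagocyte-marked. Of the stromal list Col1a2 was seen in 16 members (27 UMIs), while Col1a1, Col3a1, Dcn, Lum and Pdgfra were at 0. Endothelial genes gave 3 UMIs in all, and neutrophil genes 3. Of the plasmacytoid list Siglech was at 0 in all members and Pacsin1 was seen in 4.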
